A study of Homo sapiens with 18 samples.

Results

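The calnexin cycle lectins and glucosidases were followed as 9 named genes, 9 of the 25435 rows of a table of RNA-Seq gene counts: the lectins CALR, CANX and MLEC, the glucosidases MOGS, GANAB and PRKCSH, the folding sensors UGGT1 and UGGT2, and the ER mannosidase MAN1B1. They were chosen by name, and all 9 had a row and passed the filter on low counts in all 11 comparisons. The cells were HEK293doxERN2, a human embryonic kidney line in which doxycycline switches on a FLAG-tagged ERN2 transgene. ERN2, also called IRE1β, is a sensor of ER stress with a cytosolic RNase domain that splices XBP1 mRNA and can cleave other mRNAs. All 18 libraries came from this line, so every group carried the transgene, and they formed 6 groups of 3. Doxycycline was given at 0, 10 or 100 ng/mL for 24 hours, named no, low and high ERN2 in the labels. At each dose, cells received DMSO vehicle or 200 nM thapsigargin, which blocks the calcium pump of the ER, for 3 hours. No doxycycline-treated cells without the transgene were analysed here, so an effect of ERN2 and an effect of doxycycline itself cannot be told apart.

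In the ER lumen a new protein receives a branched glycan whose end carries glucoses, and the calnexin cycle reads how many of them remain. Glucosidase I and glucosidase II trim the glucoses, the lectins calnexin and calreticulin hold glycoproteins that keep the last glucose while they fold, and UGGT puts that glucose back on proteins that are still misfolded. Slow removal of mannose, begun by MAN1B1, marks proteins that stay too long for degradation. Several genes of this pathway are known targets of the unfolded protein response, through promoter elements that bind ATF6 and XBP1.

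The ER stress response element (ERSE), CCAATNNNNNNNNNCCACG, is the sequence that ATF6 binds together with NF-Y, and it is shown here because it sets the calreticulin and calnexin genes apart from the other members searched. RefSeq windows of 250 bases before to 50 after a start site (GRCh38.p14) were held for 8 of the 9 members, 14 windows in all. MOGS had no window and was not searched. Searched on both strands, the exact ERSE stood in windows of 2 of these 8 genes, CALR and CANX. In the whole set it stood in windows of 25 of 27305 genes (0.0916%), or 27 of 35116 windows (0.0769%). The ERSE-II (ATTGGNCCACG, 0.0541% of all windows), the UPRE core (TGACGTG, 1.97%) and the CARE core (TGATGNAA, 3.62%) had no match in a member window, so the matches shown overlap no other motif searched. The stretches below are in the direction of the gene, with the ERSE in capitals. In CALR it lies on the opposite strand, 225 to 207 bases before the start site (chr19:12938359-12938462, plus strand). In CANX it lies on the gene's own strand, 151 to 133 bases before the start site of the first listed window (chr5:179698773-179698801, plus strand), and 2 other start sites of CANX lie near it, so that 3 of its 4 windows hold it. A match of letters is a description and not evidence of binding.
CALR: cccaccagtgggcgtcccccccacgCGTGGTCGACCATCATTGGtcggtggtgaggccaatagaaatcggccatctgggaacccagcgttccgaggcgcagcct
CANX: cccggCCAATCTTCACACTCCACGaagaa

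Library totals ran from 14876416 to 24652240 counted reads, and each member had between 273 reads (UGGT2) and 59297 reads (CALR) in a library. Levels are given as counts-per-million values (CPM), scaled by TMM over the 18 libraries, and a change was called at an adjusted p under 0.01. Unless another setting is named, edgeR calls are from the main fit, of only the libraries compared, with a low-count filter and TMM scaling. ERN2 was read at 9.26, 6.66 and 7.84 CPM without doxycycline, 23.0, 27.2 and 56.8 at 10 ng/mL and 247, 308 and 244 at 100 ng/mL in vehicle. In thapsigargin it was at 14.4, 10.5 and 12.2 CPM without doxycycline, 32.3, 54.5 and 111 at 10 ng/mL and 268, 169 and 167 at 100 ng/mL. Every library at a higher dose held more ERN2 than every library at a lower dose, and at 10 ng/mL replicate 3 held the most of it in both treatments. Of 12 markers of the colon epithelium that the deposited extraction protocol names, 10 had at most 13 reads in any library (TFF3 had 0 in all), while CDX2 had 56 to 161 and LGR5 172 to 621, and all 5 markers of HEK293 cells were read in every library. The summed colon list was mostly reads of LGR5 and CDX2. In vehicle it ran from 26.9 to 40.6 CPM without doxycycline and from 19.2 to 26.6 CPM at 100 ng/mL. In thapsigargin it ran from 29.9 to 35.9 and 14.3 to 23.7 CPM. The summed HEK293 list ran from 259 to 308 and 232 to 257 CPM in vehicle, and from 196 to 203 and 222 to 288 CPM in thapsigargin, in the same order. The part of such differences in the results was not tested. In a bulk sample, fewer cells of a type and less RNA per cell cannot be told apart. Nothing in the labels says that replicates are separate cultures, so p-values measure the spread between these libraries, which may be technical. Replicate 1 at 100 ng/mL with thapsigargin and replicate 1 at 10 ng/mL in vehicle stood apart by the genes called without them. Genes called for thapsigargin at 100 ng/mL went from 29 to 2568 without the former. Those for 10 against 0 ng/mL in vehicle went from 28 to 2743 without the latter. Both libraries were picked by this gain in calls, so adjusted p without them depend on that choice. For the members, calls that changed without these libraries are given both ways. The further pathway genes are given with all libraries only. Other replicates also lay apart by chi-square per degree of freedom. Replicate 3 at 10 ng/mL with thapsigargin had 49.0 and 29.5 from the others, which differed by 15.6. Replicate 2 at 100 ng/mL in vehicle had 44.0 and 20.3, and the others differed by 11.6.

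Calreticulin mRNA rose with thapsigargin in uninduced cells and fell at 100 ng/mL doxycycline in both treatments. CALR (chr19:12938578-12944489, plus strand) encodes the soluble lectin of the ER lumen, which also stores calcium. Its level in vehicle was 1402, 1396 and 1599 CPM without doxycycline, 1119.6, 1300.5 and 899 CPM at 10 ng/mL and 479, 562 and 563 CPM at 100 ng/mL. The 3 dose groups did not overlap, and at 10 ng/mL the lowest library was the replicate 3 with the most ERN2. The log2 fold change at 100 against 0 ng/mL was -1.45 (SE 0.11, adjusted p = 1.9e-06), so CALR fell by 63.5% by edgeR's quasi-likelihood test, while the value at 10 against 0 ng/mL was -0.40 (SE 0.13, adjusted p = 0.0845) and did not pass. In thapsigargin the level was 2557, 3203 and 2899 CPM without doxycycline, 2202, 2628 and 1682 CPM at 10 ng/mL and 808, 793 and 915 CPM at 100 ng/mL. Every library at 100 ng/mL in thapsigargin stood below every uninduced library, those in vehicle included. With thapsigargin CALR rose 1.99-fold without doxycycline, a log2 fold change of 0.99 (SE 0.12, adjusted p = 8.29e-05), and this call held without each library in turn. The values at 10 and 100 ng/mL, 0.98 (SE 0.18, adjusted p = 0.0136) and 0.70 (SE 0.12, adjusted p = 0.0206), missed the threshold, and the thapsigargin and vehicle libraries did not overlap at any dose. Without replicate 3 at 10 ng/mL in thapsigargin the former had an adjusted p of 0.000797, and without replicate 1 at 100 ng/mL in thapsigargin the latter had 0.000993.

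CANX (chr5:179678628-179730925, plus strand) encodes calnexin, the membrane-bound lectin with the same glycan specificity. Its vehicle levels were 1170.0, 1365 and 1256 CPM without doxycycline, 1729.9, 1508 and 1461 CPM at 10 ng/mL and 1505, 1373 and 1426 CPM at 100 ng/mL. The induced libraries lay above the uninduced ones, opposite to CALR, but neither difference passed, with log2 fold changes of 0.31 (SE 0.10, adjusted p = 0.0878) at 10 ng/mL and 0.18 (SE 0.10, adjusted p = 0.243) at 100 ng/mL. The 95% interval of the latter, -0.03 to 0.40, contains no loss of the size seen for CALR. In thapsigargin CANX was at 1587, 1982 and 1401 CPM without doxycycline, 1815, 2045 and 1509.6 CPM at 10 ng/mL and 974, 1027 and 1325 CPM at 100 ng/mL. The libraries at 100 ng/mL were below both other doses without overlap, by -0.52 against no doxycycline and -0.63 against 10 ng/mL on the log2 scale, with adjusted p of 0.0425 and 0.0241, short of the threshold in the main edgeR fit. DESeq2 called the latter, with an adjusted p of 0.00952, and so did edgeR without a filter on low counts (0.00651). With all 6 groups in the fit edgeR called both, with adjusted p of 0.00415 and 0.00128. Thapsigargin without doxycycline gave 0.40 (SE 0.13, adjusted p = 0.0407), which also missed the threshold in the main edgeR fit. Without replicate 3 of the uninduced thapsigargin group that value was 0.52 with an adjusted p of 0.00269. By edgeR without a filter on low counts, with all libraries, that response had an adjusted p of 0.00975.

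MLEC (chr12:120686869-120701864, plus strand) encodes malectin, a lectin that recognises glycans before the last glucoses are trimmed. In vehicle it was at 356, 402 and 404 CPM without doxycycline, 406, 419 and 389 CPM at 10 ng/mL and 326, 348 and 334 CPM at 100 ng/mL. With thapsigargin it was at 394, 479 and 379.6, 408, 485 and 369 and 247, 229 and 263 CPM at the same doses. The group at 100 ng/mL with thapsigargin lay below every other library of the series. MLEC fell there by 0.70 on the log2 scale against no doxycycline (SE 0.14, adjusted p = 0.00359) and by 0.72 against 10 ng/mL (SE 0.15, adjusted p = 0.00689). The first call was lost without replicate 1 or 2 of the uninduced thapsigargin group or replicate 2 at 100 ng/mL, with adjusted p of 0.0151, 0.0284 and 0.0328. The second was lost without any of 4 libraries, with adjusted p of 0.0154 to 0.0816. Its value for 100 against 0 ng/mL in vehicle was -0.20 (SE 0.10, adjusted p = 0.188).

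**Figure D1:**
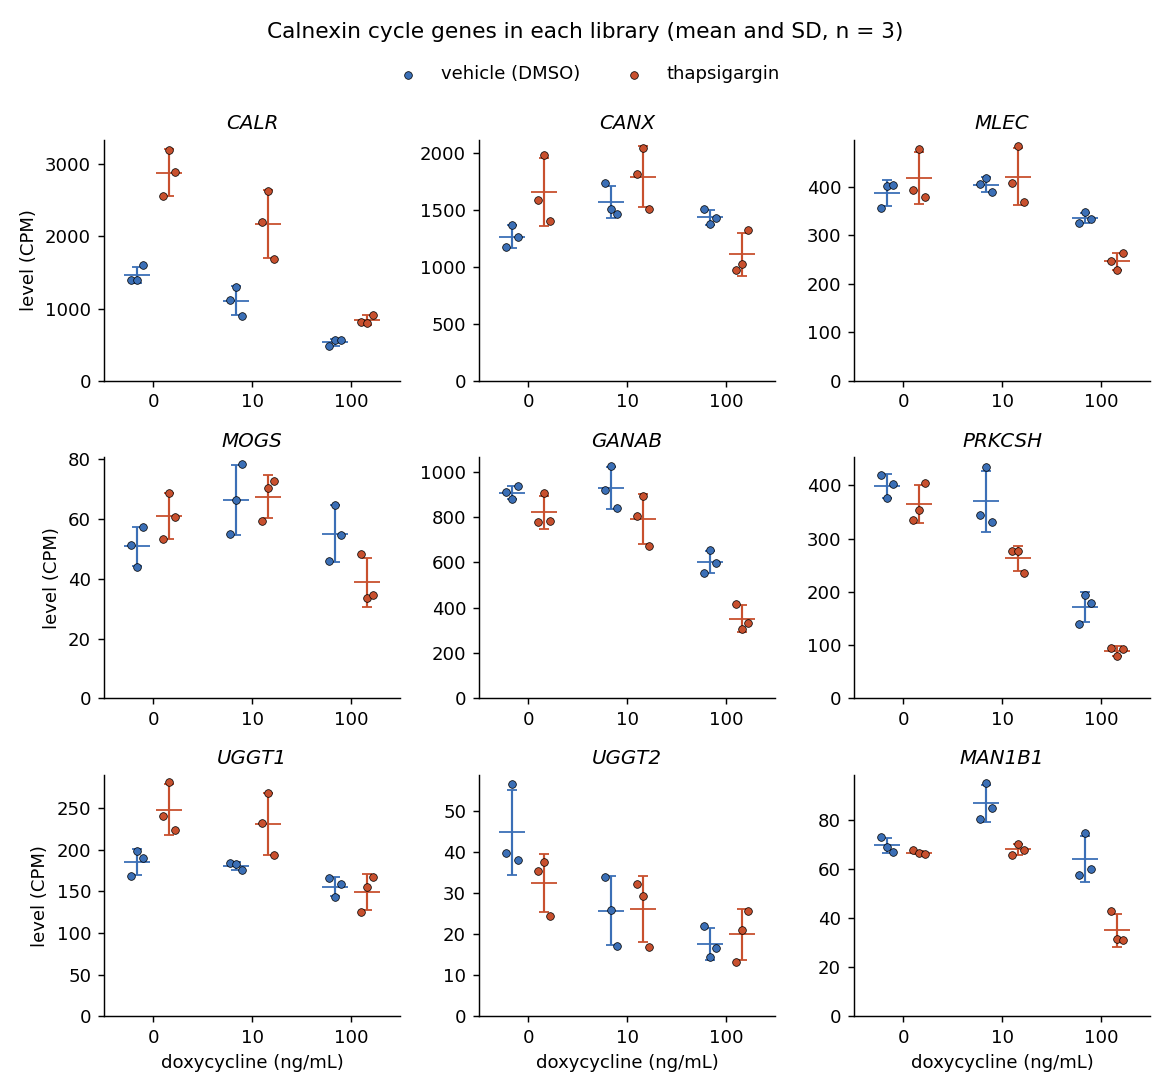
Levels of the 9 genes in counts-per-million (CPM, TMM-scaled, linear axis from 0) by doxycycline dose in ng/mL. Points are the 3 libraries of a group, horizontal marks the mean and bars the SD, with vehicle in blue and thapsigargin in orange. CALR, MLEC, GANAB, PRKCSH and, narrowly, UGGT1 libraries at 100 ng/mL lie below all uninduced libraries, and CANX in vehicle does not.

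Among the glucosidases, both subunits of glucosidase II fell at 100 ng/mL, with or without thapsigargin. Glucosidase I was called in no comparison by the main edgeR fit, but other edgeR settings with all libraries called it in thapsigargin. PRKCSH (chr19:11435288-11450968, plus strand) encodes the β subunit, which keeps the enzyme in the ER and recognises mannose. It was at 419, 375 and 402 CPM without doxycycline, 344, 435 and 331 CPM at 10 ng/mL and 139, 194 and 179.6 CPM at 100 ng/mL in vehicle. With thapsigargin it was at 335, 354 and 405, 277, 276 and 235 and 95.2, 79.2 and 93.7 CPM. The highest library at 100 ng/mL in either treatment was below the lowest at any smaller dose. PRKCSH fell by 57.1% in vehicle, a log2 fold change of -1.22 (SE 0.13, adjusted p = 2.72e-05), and it fell by 74.4% in thapsigargin, -1.97 (SE 0.14, adjusted p = 2.61e-06), the latter the lowest value of any member in any comparison. Both calls held without each library in turn. Between vehicle and thapsigargin at 100 ng/mL the groups did not overlap, and the value of -0.89 (SE 0.15, adjusted p = 0.0191) missed the threshold, with an adjusted p of 0.000586 without replicate 1 of the thapsigargin group.

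GANAB (chr11:62624826-62646726, minus strand) encodes the catalytic α subunit of the same enzyme. In vehicle it was at 910.2, 880.4 and 936 CPM without doxycycline, 919, 1027 and 841 CPM at 10 ng/mL and 553, 654 and 599 CPM at 100 ng/mL. In thapsigargin the same doses gave 779, 907 and 781, 806, 893 and 674 and 419, 305 and 333 CPM. The groups without doxycycline and at 10 ng/mL overlapped in both treatments, while those at 100 ng/mL stood below them. GANAB fell by 33.7% in vehicle at 100 against 0 ng/mL, -0.59 (SE 0.10, adjusted p = 0.00127), and it fell by 55.4% in thapsigargin, -1.16 (SE 0.15, adjusted p = 0.000128). For thapsigargin against vehicle at 100 ng/mL the value was -0.73 (SE 0.14, adjusted p = 0.026), with an adjusted p of 0.000314 without replicate 1 of the thapsigargin group. At 10 ng/mL in vehicle the difference from no doxycycline was 0.03 on the log2 scale, with a 95% interval of -0.18 to 0.25.

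MOGS (chr2:74461057-74465410, minus strand) encodes glucosidase I, which takes off the outermost glucose before the cycle begins. It was among the less abundant members, at 51.3, 44.0 and 57.1 CPM without doxycycline, 54.8, 66.1 and 78.1 CPM at 10 ng/mL and 45.7, 64.7 and 54.6 CPM at 100 ng/mL in vehicle. With thapsigargin it was at 53.3, 68.5 and 60.6, 59.1, 70.1 and 72.7 and 48.2, 33.4 and 34.5 CPM. Its groups overlapped in every comparison but those of 100 ng/mL with the smaller doses in thapsigargin. Those differences were -0.59 (SE 0.18, adjusted p = 0.0331) against no doxycycline and -0.74 (SE 0.18, adjusted p = 0.0169) against 10 ng/mL, neither past the threshold in the main edgeR fit. Without replicate 1 at 100 ng/mL the adjusted p were 0.000802 and 0.00121. With all 6 groups in the fit edgeR called both, with adjusted p of 0.00791 and 0.00212. Without a filter on low counts it called the difference from 10 ng/mL (0.00674). DESeq2 called the difference from 10 ng/mL, at -0.72 with an adjusted p of 0.0026. The value in vehicle at 10 against 0 ng/mL was 0.39 (SE 0.15, adjusted p = 0.112), and 0.51 with an adjusted p of 0.00703 without replicate 1 at 10 ng/mL.

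Of the paralogous folding sensors, UGGT2 fell with induction in vehicle. UGGT1 was called in no comparison by the main edgeR fit, but other edgeR settings with all libraries called it. UGGT1 (chr2:128091200-128195677, plus strand) encodes the enzyme that returns a glucose to misfolded glycoproteins, and UGGT2 (chr13:95801580-96053482, minus strand) its less abundant relative. UGGT2 was at 39.7, 56.5 and 38 CPM without doxycycline, 34.0, 25.9 and 17.1 CPM at 10 ng/mL and 22.0, 14.4 and 16.7 CPM at 100 ng/mL in vehicle. In thapsigargin it was at 35.4, 37.5 and 24.4, 32.2, 29.2 and 17.0 and 13.3, 21.1 and 25.6 CPM. Its replicates at 10 ng/mL were widely spread, and the 6 induced vehicle libraries lay below the 3 uninduced ones. UGGT2 fell by 60.5% at 100 against 0 ng/mL in vehicle, -1.34 (SE 0.19, adjusted p = 0.000296), a call that held without each library in turn. At 10 ng/mL the value was -0.80 (SE 0.22, adjusted p = 0.0787), not past the threshold in the main edgeR fit. With all libraries DESeq2 called it, at -0.81 with an adjusted p of 0.00825. So did edgeR without a filter on low counts (0.0029). Without replicate 1 at 10 ng/mL the main fit gave -1.06 with an adjusted p of 0.00116. In thapsigargin the difference at 100 against 0 ng/mL, -0.64 (SE 0.25, adjusted p = 0.0856), did not pass. UGGT2 also differed by -0.45 (SE 0.18, adjusted p = 0.0938) between thapsigargin and vehicle without doxycycline, and those groups did not overlap.

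UGGT1 was at 168, 198 and 190.4 CPM without doxycycline, 184, 183 and 175 CPM at 10 ng/mL and 166, 143 and 158 CPM at 100 ng/mL in vehicle. With thapsigargin it was at 240.0, 282 and 223, 232, 268 and 194 and 126, 155 and 168 CPM. The thapsigargin libraries stood above vehicle at 0 and 10 ng/mL and overlapped it at 100 ng/mL. With all libraries none of its values passed the threshold in the main edgeR fit. The thapsigargin response was 0.43 (SE 0.12, adjusted p = 0.0174) without doxycycline, 0.36 (SE 0.13, adjusted p = 0.117) at 10 ng/mL and -0.02 (SE 0.15, adjusted p = 0.955) at 100 ng/mL. At 100 against 0 ng/mL in thapsigargin UGGT1 differed by -0.67 (SE 0.16, adjusted p = 0.0102), just outside the threshold. It passed without replicate 1 or 3 at 100 ng/mL, with adjusted p of 0.0053 and 0.00928, and DESeq2 gave an adjusted p of 0.00128. Other edgeR settings with all libraries called it too, with adjusted p of 0.00868 (RLE size factors), 0.00224 (no filter) and 0.000269 (all 6 groups in the fit). Without replicate 3 of the uninduced thapsigargin group its response without doxycycline was 0.51 with an adjusted p of 0.00232, and DESeq2 called that response with all libraries, at 0.42 with an adjusted p of 0.00748. By edgeR without a filter on low counts that response had an adjusted p of 0.00661.

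MAN1B1 (chr9:137086927-137109187, plus strand) encodes the mannosidase that trims the mannose marking a glycoprotein for degradation. Its vehicle levels were 72.9, 69.0 and 66.6 CPM without doxycycline, 80.2, 94.8 and 84.9 CPM at 10 ng/mL and 57.4, 74.7 and 59.8 CPM at 100 ng/mL. With thapsigargin they were 67.5, 66.3 and 66.1, 65.6, 70.3 and 67.7 and 42.7, 31.4 and 31.0 CPM. The group at 100 ng/mL with thapsigargin was the lowest, with no overlap with any other group, and the vehicle group at 10 ng/mL the highest. MAN1B1 fell by 45.1% at 100 against 0 ng/mL in thapsigargin, -0.87 (SE 0.16, adjusted p = 0.0023). In vehicle the value was -0.12 (SE 0.12, adjusted p = 0.558), which did not pass. The call in thapsigargin was lost without replicate 1 or 2 of the uninduced group or replicate 2 at 100 ng/mL, with adjusted p of 0.0163, 0.0121 and 0.0228. Whether its responses in vehicle and thapsigargin differ is the interaction given further on.

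Over the members together, induction at 100 ng/mL in vehicle lowered 4 of 9 (CALR, UGGT2, PRKCSH and GANAB) and raised 0, where 7.49% of all genes tested were lower and 0.838% higher. The median log2 fold change of the 9 was -0.25, against -0.01 over all genes. At 10 against 0 ng/mL in vehicle 0 of 9 were called in either direction by edgeR, where 0.138% of all genes were higher and 0.0552% lower. There 5 members and 4421 of 14497 genes had an unadjusted p under 0.05, and DESeq2 called 1 member (UGGT2, lower) and 381 genes. Between 100 and 10 ng/mL in vehicle 3 of 9 were lower (CALR, PRKCSH and GANAB) and 0 higher, where 2.43% and 0.0137% of all genes were. The values were -1.04 (SE 0.14, adjusted p = 0.00351) for CALR, -1.10 (SE 0.15, adjusted p = 0.00317) for PRKCSH and -0.61 (SE 0.11, adjusted p = 0.00996) for GANAB. All 3 of these calls were lost without replicate 2 at 10 ng/mL or without replicate 1 or 3 at 100 ng/mL, where 0 members were called and adjusted p of CALR were 0.0217, 0.0118 and 0.0285. GANAB was also lost without replicate 2 at 100 ng/mL (-0.66, adjusted p = 0.0102).

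In thapsigargin, at 100 against 0 ng/mL, 5 of 9 were lower (PRKCSH, CALR, GANAB, MAN1B1 and MLEC) and 0 higher, where 9% of all genes were lower and 1.53% higher. All 9 had log2 fold changes under 0, from -1.97 to -0.52, with a median of -0.70 against 0.04 over all genes. Between 100 and 10 ng/mL the same 5 were lower and 0 higher, where 5.32% and 0.235% of all genes were. PRKCSH led there too, with -1.50 (SE 0.15, adjusted p = 0.000325), followed by CALR with -1.31 (SE 0.17, adjusted p = 0.000581), GANAB with -1.11 (SE 0.16, adjusted p = 0.000974) and MAN1B1 with -0.90 (SE 0.17, adjusted p = 0.004). Without replicate 2 at 100 ng/mL only PRKCSH of the 9 was called, and CALR had an adjusted p of 0.0121, GANAB 0.0178 and MAN1B1 0.0519. GANAB was also lost without replicate 2 at 10 ng/mL (0.0123), and MAN1B1 without any of the 3 libraries at 10 ng/mL (0.0107 to 0.0406) or replicate 3 at 100 ng/mL (0.0158). Without replicate 1 at 100 ng/mL, which stood apart, 6 members were called against 10 ng/mL and 7 against 0 ng/mL, among 2712 and 3950 genes.

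At 10 against 0 ng/mL in thapsigargin edgeR called 0 of 9 members and 0% of all genes in either direction. At an unadjusted p under 0.05 there were 612 genes and 2 members, and DESeq2 called 39 genes and 0 members. Same-numbered libraries of these groups deviated together, and with the replicate number as a block 197 genes were higher and 367 lower. The labels state no pairing. The block was fitted in every comparison and is given here because of this pattern in the same counts, so its adjusted p depend on that choice. In the fit with the block 2 members were lower, CALR with a log2 fold change of -0.43 (adjusted p = 0.000264) and PRKCSH with -0.47 (adjusted p = 0.000128). Without the block the values were -0.41 (SE 0.16, adjusted p = 0.978) and -0.47 (SE 0.12, adjusted p = 0.621). PRKCSH libraries of the 2 groups did not overlap, and those of CALR did.

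**Figure D2:**
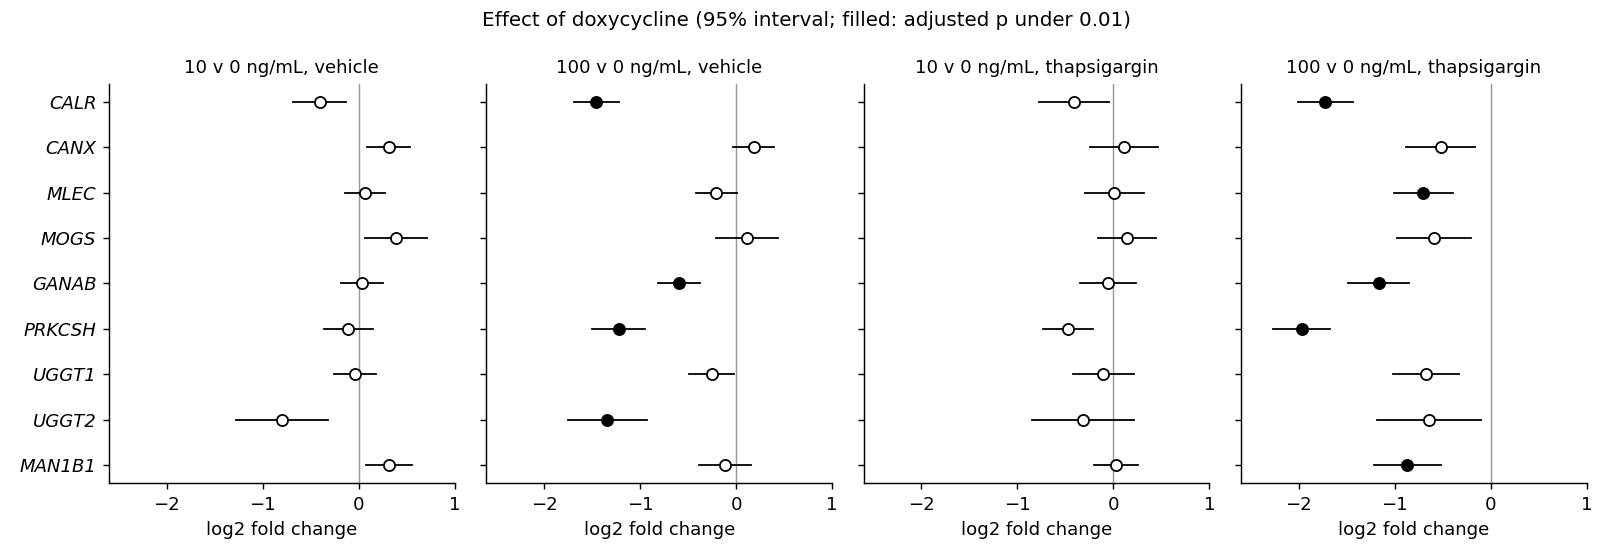
Log2 fold change of each gene between doxycycline doses, in vehicle and in thapsigargin (edgeR, groups of 3 libraries). Lines are 95% intervals and filled points have an adjusted p under 0.01. At 100 against 0 ng/mL 4 genes are filled in vehicle and 5 in thapsigargin, all to the left of 0.

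With thapsigargin and without doxycycline 1 of 9 was higher by edgeR (CALR) and 0 lower, where 6.45% of all genes were higher and 4.74% lower. There 4 members and 5173 of 14397 genes had an unadjusted p under 0.05, and DESeq2 called 2 members (CALR and UGGT1) and 2335 genes. The median member stood at 0.12 against -0.01 over all genes. For comparison, the ER chaperone gene HSPA5 rose 7.29-fold and XBP1 6.30-fold in the same libraries. At 10 ng/mL edgeR called 0 of 9, where 1.16% of all genes were higher and 0.294% lower. In that comparison 4 members and 3602 of 14607 genes had an unadjusted p under 0.05, and DESeq2 called 1 member (CALR) and 1101 genes. At 100 ng/mL edgeR called 0 of 9, where 0.18% of all genes were higher and 0.0208% lower. There 7 members and 3892 of 14427 genes had an unadjusted p under 0.05. DESeq2 called 4 members (CALR higher, and GANAB, PRKCSH and MAN1B1 lower) and 732 genes. The median member was at -0.40 there, against -0.002 over all genes, and MAN1B1 at -0.82 (SE 0.17, adjusted p = 0.0345). Without replicate 1 at 100 ng/mL in thapsigargin edgeR called 5 members, CALR higher and GANAB, PRKCSH, MOGS and MAN1B1 lower, among 2568 genes, with log2 fold changes of -0.95 for PRKCSH and -1.0 for MAN1B1.

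Whether the thapsigargin response differed between doses was tested as an interaction over 12 libraries. At 10 ng/mL edgeR called 0 of 9 members and 0% of genes in either direction. At an unadjusted p under 0.05 there were 664 genes and 2 members, and DESeq2 called 3 genes and 0 members. The responses of CALR there differed by -0.0026 on the log2 scale, with a 95% interval of -0.47 to 0.47. At 100 ng/mL 0 of 9 passed in either direction, where 0.00677% of all genes were higher and 0.0339% lower. There 6 members and 3651 of 14768 genes had an unadjusted p under 0.05. The difference of responses was under 0 for 8 of 9 members, with a median of -0.51 against 0.04 over all genes. It was -0.69 (SE 0.17, adjusted p = 0.0611) for PRKCSH, -0.69 (SE 0.19, adjusted p = 0.0752) for MAN1B1, -0.65 (SE 0.21, adjusted p = 0.0962) for CANX and -0.51 (SE 0.16, adjusted p = 0.0954) for GANAB. UGGT2 was the member above 0, at 0.75 (SE 0.36, adjusted p = 0.214). CALR had -0.21 (SE 0.15, adjusted p = 0.406), with a 95% interval of -0.54 to 0.12, so its response at 100 ng/mL was not shown to differ from that without doxycycline. DESeq2 called PRKCSH and MAN1B1, with adjusted p of 0.00671 and 0.00847, among 341 genes. Without replicate 1 at 100 ng/mL in thapsigargin edgeR called 3 members lower, MAN1B1 (-0.90, adjusted p = 0.00305), GANAB (-0.70, 0.00519) and PRKCSH (-0.78, 0.00891), among 1286 genes. XBP1 and HSPA5 passed in the full set of libraries, with -2.14 and -1.58.

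**Figure D3:**
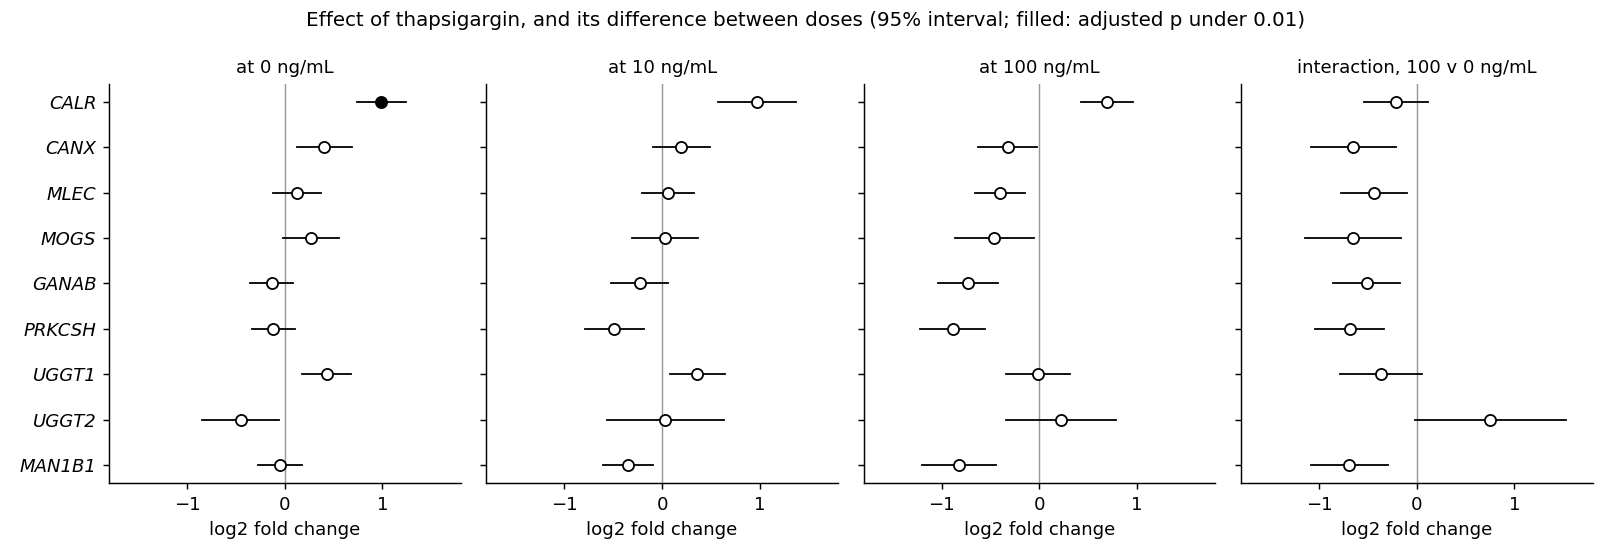
Log2 fold change of each gene between thapsigargin and vehicle at each doxycycline dose, and in the right panel the difference of responses between 100 and 0 ng/mL (edgeR). Lines are 95% intervals and filled points have an adjusted p under 0.01. The filled point is CALR at 0 ng/mL, at 0.99, and in the right panel 8 of 9 points lie left of 0.

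Ratios of read counts within a library do not depend on its depth, and they set partners in the cycle side by side. The soluble to membrane-bound lectin ratio, CALR to CANX, was 1.2, 1.02 and 1.27 in vehicle without doxycycline, 0.647, 0.862 and 0.616 at 10 ng/mL and 0.319, 0.409 and 0.395 at 100 ng/mL. In thapsigargin it was 1.61, 1.62 and 2.07, 1.21, 1.29 and 1.11 and 0.829, 0.771 and 0.69. In both treatments the ratio was lower at each higher dose without overlap, and at each dose it was higher with thapsigargin without overlap. The ratio of glucosidase II subunits, GANAB to PRKCSH, was 2.17, 2.35 and 2.33 in vehicle without doxycycline, 2.67, 2.36 and 2.54 at 10 ng/mL and 3.97, 3.37 and 3.34 at 100 ng/mL. In thapsigargin it was 2.32, 2.56 and 1.93, 2.90, 3.23 and 2.86 and 4.40, 3.85 and 3.56. All dose groups of a treatment were apart in this ratio, the highest dose having the most GANAB per PRKCSH. UGGT1 to UGGT2 was 4.24, 3.51 and 5.01 in vehicle without doxycycline, 6.78, 7.51 and 9.14 with thapsigargin, and between 5.40 and 11.4 in the induced libraries of both treatments. Over 27 comparisons of ratios, the groups that did not overlap had an exact permutation p of 0.1, two-sided, which is the smallest that 3 against 3 can give, and 0.142 after Benjamini-Hochberg adjustment. These are ratios of reads and not per length.

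**Figure D4:**
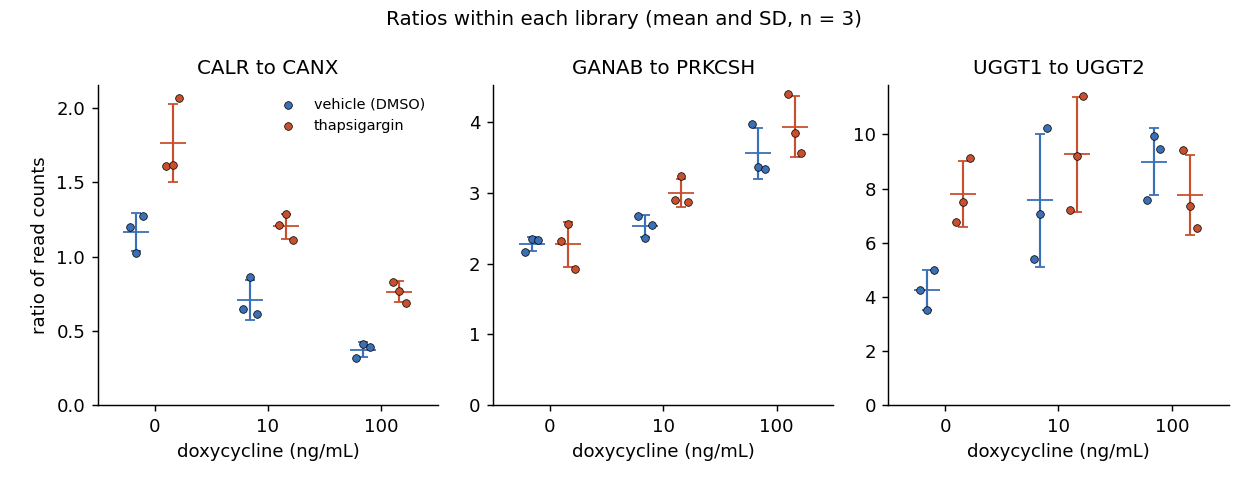
Ratio of read counts of gene pairs within each library, by doxycycline dose in ng/mL, on linear axes from 0. Points are the 3 libraries of a group, marks the mean and bars the SD. In vehicle CALR to CANX is 1.16 ± 0.13 at 0 and 0.374 ± 0.049 at 100 ng/mL, and GANAB to PRKCSH is 2.28 ± 0.096 and 3.56 ± 0.36.

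Per kilobase of the longest coding transcript in GENCODE release 29, CALR was the most abundant member without doxycycline in vehicle, at 770.2 ± 60.7 CPM per kb (mean ± SD, n = 3), ahead of CANX at 297 ± 23.0, GANAB at 233 ± 7.10 and PRKCSH at 181 ± 10.0. MLEC followed at 58.4 ± 4.14 and MAN1B1 at 25.1 ± 1.13, MOGS and UGGT1 did not differ beyond their spread at 17.5 ± 2.27 and 17.4 ± 1.46, and UGGT2 was lowest at 9.26 ± 2.12. With the median coding transcript in place of the longest, the order changed: CANX came before CALR, at 2135 against 1605 CPM per kb, PRKCSH (638) and MLEC (557) before GANAB (244), and MOGS was lowest at 21.9, below UGGT2 at 32.2. The word CTGCAG, the core of the site that the IRE1 RNase cuts, occurred 1 to 8 times in the longest coding transcripts of all 9 members, and in 83.5% of 18308 coding genes of the table. PRKCSH had the highest density of it among the members, 1.36 per kb, above that of 78.7% of those genes, and MOGS the lowest, 0.345 per kb, above that of 25.7%. Exons on the opposite strand overlap CANX by 150 bases (CBY3), PRKCSH by 64 (CCDC151), CALR by 270 and MLEC by 907, and the counting's use of strand is not given in the sources used here.

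By Pearson's r of log2 CPM over the 18 libraries, among 15023 genes, the profile most like CALR was that of ATP2A2 (r = 0.99), the ER calcium pump that thapsigargin blocks, and then SLC1A4 (0.96). Those most like PRKCSH were EPHB2 and G6PC3 (both 0.99), and those most like GANAB were FADS2 and CDH4 (both 0.99). CANX was nearest to SSR3 (0.93) and TMED2 (0.90), MLEC to TMEM66 (0.97) and MGAT2 (0.96), and UGGT1 to PRNP (0.97) and MCFD2 (0.93). For UGGT2, GALNT13 had an r of 0.96, and MOGS was nearest to TMED9 and SMG5 (both 0.96), and MAN1B1 to SLC10A3 and EPHB4 (both 0.98). Among members, r was 0.88 between CALR and UGGT1, 0.81 between CANX and MLEC, and 0.30 between CALR and MAN1B1. The libraries share their groups, so these values are descriptions and carry no p.

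Of 25 further genes that act with the cycle, 23 were tested, in fits with all libraries kept. Among mannose trimming and degradation genes, thapsigargin without doxycycline raised 4 of 9 and lowered 0, where 6.45% of all genes were higher and 4.74% lower. The 4 were SEL1L (1.88 on the log2 scale), SYVN1 (1.55), TXNDC11 (1.07) and EDEM1 (0.95), which build or feed the channel that takes misfolded proteins out of the ER. At 10 ng/mL it raised 3 of them (SEL1L, SYVN1 and TXNDC11), where 1.16% of all genes were higher. At 100 ng/mL edgeR called 0 of the 23. There 8 of the 23 were among 3892 of 14427 genes at an unadjusted p under 0.05, and 2 among 732 genes called by DESeq2. MANEA, a Golgi endomannosidase, fell without doxycycline (-0.92). At 100 against 0 ng/mL in vehicle 2 of 23 rose, SYVN1 (0.72) and TXNDC11 (0.58), and 7 fell, where 0.838% of all genes were higher and 7.49% lower. The 7 were the Golgi mannosidases MAN1C1 (-1.85), MAN1A1 (-0.68) and MAN1A2 (-0.59), the degradation lectin OS9 (-1.05), the calnexin homologue CLGN (-0.94), the exit cofactor MCFD2 (-0.71) and the luminal protein ERP29 (-0.59). In thapsigargin 9 of 23 fell and 0 rose, where 9% of all genes were lower and 1.53% higher. The 9 were MAN1C1 (-2.04), OS9 (-1.42), SEL1L (-1.18), the exit lectins LMAN2 (-1.17) and LMAN2L (-0.71), MCFD2 (-1.01), the prolyl isomerase PPIB (-0.98), MAN1A1 (-0.93) and ERP29 (-0.75). Between 100 and 10 ng/mL 2 of 23 fell in vehicle (OS9 and MAN1C1) and 4 in thapsigargin (PPIB, ERP29, OS9 and LMAN2), where 2.43% and 5.32% of all genes were lower. PDIA3, the disulfide isomerase that calnexin and calreticulin recruit, was called in no comparison by the main edgeR fit, with -0.14 (SE 0.11, adjusted p = 0.4) at 100 against 0 ng/mL in vehicle and -0.34 (SE 0.19, adjusted p = 0.223) in thapsigargin. At 10 against 0 ng/mL edgeR called 0 of the 23 in either treatment. In vehicle 13 were among 4421 of 14497 genes at an unadjusted p under 0.05, and 3 among 381 genes called by DESeq2. In thapsigargin these were 3 among 612 of 14509, and 0 among 39. In the interactions edgeR called 0 of the 23. At 10 ng/mL 2 were among 664 of 14857 genes at an unadjusted p under 0.05, and 0 among 3 genes called by DESeq2. At 100 ng/mL these were 8 among 3651 of 14768, and 5 among 341.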

How the data were processed

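RNA-Seq libraries were prepared from total RNA of HEK293doxERN2 cells with a stranded mRNA kit. Alignment was by STAR within the VIPER pipeline, and the authors deposited the resulting counts without normalization, as a table with a row for each gene symbol and a column for each of the 18 libraries. The submitters' processing notes name hg38 as the build and DESeq2 as a further tool, and versions, annotation and strand setting are not given in the sources used here. Groups and replicate numbers were taken from the labels, and columns were matched to libraries through the column numbers given there. The table had 25435 rows, of which 2 repeated a symbol and 28 carried a symbol turned into a date, and 0 value columns were left unused.

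Counts of the libraries compared were kept by filterByExpr (minimum count 10), scaled by TMM factors and fitted by the quasi-likelihood method of edgeR 4.0.16 in R 4.3.3. P-values were adjusted by the Benjamini-Hochberg method across all genes tested in each comparison, and 0.01 was the threshold. Standard errors were derived as |log2 fold change| over the root of the F statistic, and intervals are 95%. Library totals ran from 14876416 to 24652240. Alternatives were DESeq2 1.42.0 (which leaves some adjusted p undefined), RLE size factors, no filter, all 6 groups, a replicate block, a threshold of 0.05 and each library left out. The functions were tested on simulated data. The main fits left the replicate numbers out, and the block was an alternative in every comparison. For 10 against 0 ng/mL in thapsigargin the deviations of same-numbered libraries from their group means correlated at 0.567, 0.512 and 0.654. The fit with the block is therefore set beside the main fit there. A pairing was inferred from these counts and is not stated in the labels. In the other 8 comparisons of 2 groups at least 1 of the 3 correlations was under 0.1. Replicates differed by more than sampling noise (chi-square per degree of freedom 7.33 to 63.8), so all 18 libraries were counted. Ratios were compared by exact permutation tests (scipy 1.17.1). Promoter windows came from RefSeq (GRCh38.p14), and positions and transcripts from GENCODE release 29, the same build, by symbol for 9 of 9 members. Figures were drawn with matplotlib 3.10.9.

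The members and gene lists were chosen with earlier results of these data known. Named were all 9 members, ERN2, XBP1 and HSPA5 as references, the wider pathway list by counts with its genes named where called (PDIA3 was added after its values were seen), and for each member the 2 genes with the most similar profile, of which 1, for UGGT2, is not reported here. In the wider list SELENOM was read under its older symbol SELM, SELENOF had no matched row, and CALR3 did not pass the filter.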

Additional observations from a re-analysis of the deposited data

How the results depend on the processing

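The number of members called in a comparison was within 1.5 times that given in the report in 44 of 66 alternatives that kept all libraries and in 63 of 78 that left out a library. At an adjusted p of 0.05 the members called were 3 for thapsigargin without doxycycline, 1 at 10 ng/mL, 4 at 100 ng/mL, 8 for 100 against 0 ng/mL and 8 for 100 against 10 ng/mL in thapsigargin. Genes called were, in that order, 3260 of 14397, 1009 of 14607, 494 of 14427, 3018 of 14358 and 2061 of 14493. Without a filter on low counts the members called were 3, 1 and 4 for the thapsigargin responses in order of dose, and 1 for 10 against 0 ng/mL in vehicle. Genes called there were 2173 of 19837, 529 of 19868, 299 of 19818 and 623 of 19842. With all 6 groups in the fit the members called were 1 and 4 for the thapsigargin responses at 10 and 100 ng/mL, and 8 and 8 for 100 against 0 and against 10 ng/mL in thapsigargin. Of 15023 genes, 676, 941, 2641 and 2054 were called in these. With DESeq2 the members called were 2, 1 and 4 for the thapsigargin responses, 1 for 10 against 0 ng/mL in vehicle and 2 for the interaction at 100 ng/mL. Genes called there were 2335 of 14397, 1101 of 14607, 732 of 14427, 381 of 14497 and 341 of 14768. With the replicate number as a block they were 4 and 4 for the thapsigargin responses at 0 and 10 ng/mL, 2 for 10 against 0 ng/mL in thapsigargin and 3 for 100 against 10 ng/mL in thapsigargin. The labels do not say that the numbers pair libraries. Of the 9 comparisons of 2 groups, only in 10 against 0 ng/mL in thapsigargin were all 3 correlations of same-numbered libraries over 0.1. In the other comparisons the block moved the genes called from 1611 to 3571, from 212 to 3620 and from 29 to 4 for the thapsigargin responses in order of dose, and from 805 to 384 for 100 against 10 ng/mL in thapsigargin. It ended the calls of GANAB at 100 against 0 ng/mL in vehicle (adjusted p = 0.0117) and of MLEC (0.0356) and MAN1B1 (0.0223) at 100 against 10 ng/mL in thapsigargin. When single libraries were left out, the members called ran from 1 to 3, 0 to 1 and 0 to 5 for the thapsigargin responses in order of dose, from 0 to 2 for 10 against 0 and 0 to 3 for 100 against 10 ng/mL in vehicle, from 3 to 7 for 100 against 0 and 1 to 6 for 100 against 10 ng/mL in thapsigargin, and from 0 to 3 for the interaction at 100 ng/mL. Genes called ran from 731 to 1901, 28 to 494 and 4 to 2568 for the thapsigargin responses. The rest ran from 0 to 2743, 0 to 496, 763 to 3950, 42 to 2712 and 2 to 1286, in the same order. The 4 calls at 100 against 0 ng/mL in vehicle held without each library. RLE size factors ended the call of GANAB at 100 against 10 ng/mL in vehicle (adjusted p = 0.0132) and made that of UGGT1 at 100 against 0 ng/mL in thapsigargin (0.00868).

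The alternatives counted next include the threshold of 0.05, which reuses the main fit and so cannot turn a sign. The sign of a member's log2 fold change turned in 35 of 1296 alternatives, none of them called. When a library was left out these values ran, for thapsigargin at 10 ng/mL, from -0.060 to 0.14 (MLEC), -0.18 to 0.27 (UGGT2) and -0.11 to 0.17 (MOGS), and at 100 ng/mL from -0.11 to 0.081 (UGGT1) and -0.0036 to 0.43 (UGGT2). In vehicle they ran from -0.11 to 0.0089 (UGGT1) and -0.045 to 0.10 (GANAB) at 10 against 0 ng/mL, and from -0.011 to 0.23 (MOGS) at 100 against 0 ng/mL. For 10 against 0 ng/mL in thapsigargin they ran from -0.088 to 0.13 (MLEC), -0.21 to 0.012 (UGGT1) and -0.14 to 0.050 (GANAB). For the interaction at 10 ng/mL they ran from -0.17 to 0.15 (CALR, which was at 0.0066 with the replicate block), -0.17 to 0.061 (MLEC), -0.18 to 0.051 (UGGT1) and -0.19 to 0.015 (GANAB). The cause was not tested.

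Over all alternatives the genes called ran from 731 to 3571, 28 to 3620 and 4 to 2568 for the thapsigargin responses in order of dose (1611, 212 and 29 as reported). In vehicle they ran from 0 to 2743 at 10 against 0 ng/mL (28), 750 to 2063 at 100 against 0 (1203) and 0 to 1224 at 100 against 10 (356). In thapsigargin they ran from 0 to 564 (0), 763 to 3950 (1512) and 42 to 2712 (805) in the same order, and for the interactions from 0 to 3 at 10 ng/mL (0) and 2 to 1286 at 100 ng/mL (6). DESeq2 split the calls differently from edgeR, with 667 higher and 434 lower for thapsigargin at 10 ng/mL (169 and 43 by edgeR), 257 higher and 475 lower at 100 ng/mL (26 and 3), 107 and 274 for 10 against 0 ng/mL in vehicle (20 and 8), 677 and 1654 for 100 against 0 (220 and 1292) and 424 and 1223 for 100 against 10 ng/mL in thapsigargin (34 and 771), and 138 and 203 for the interaction at 100 ng/mL (1 and 5). Scaling by library totals in place of TMM moved the mean level of each member in each group, 54 in all, by less than its SD, and the median transcript in place of the longest moved 49 of 54 levels per kb by more. Counts behind a member ranged from 273 reads (UGGT2) to 59297 (CALR) in a library, and each group had 3 libraries.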
